A study of Danio rerio with 17 samples.

Results

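The genes described here encode the proteasome and the enzymes that activate and carry ubiquitin or its relatives, measured in the livers of male and female zebrafish. Members were the genes whose symbol in the platform annotation begins with psma to psmg, ube2 or uba1 to uba7, taken from probe sets with 1 symbol, and the brightest probe set stood for each gene. The rule used symbols and mean brightness, not a difference between groups, but was chosen with earlier results of these data known. It gave 81 of the 8793 genes named by 1 symbol on the array, on 97 of 15502 probe sets tested. By role they were 15 subunits of the 20S core, 5 immunoproteasome-type subunits, 7 ATPases and 14 psmd genes of the 19S cap, 3 activators, 1 inhibitor, 3 assembly chaperones, 4 E1 and 27 E2 genes. Roles were given by symbol, so the psmd genes counted with the cap include psmd5, psmd9 and psmd10, known in mammals as chaperones of cap assembly. The other 2, psmc3ip and psme3ip1, are only named after subunits to which their products bind.

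Liver RNA of 17 zebrafish was hybridised to Affymetrix arrays, 1 fish to each array, and both sexes were fed either 0% or 25% carbohydrate. The labels place 5 female fish on 0% carbohydrate, numbered 7, 8, 10, 25 and 27, and 5 female fish on 25%, numbered 3, 20, 24, 49 and 51. They place 4 male fish on 0%, numbered 11, 26, 30 and 66, and 3 male fish on 25%, numbered 52, 53 and 54. The design text of the series swaps the 2 male group sizes, and the labels were used. Strain, age and time on the diet are not given in the sources used here.

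The proteasome is the barrel-shaped protease that breaks down most tagged proteins of the cytosol and nucleus. Alpha and beta rings form its core, and a cap binds tagged proteins, unfolds them with a ring of ATPases and feeds them into the barrel. The tag is ubiquitin, which an E1 enzyme activates and passes to an E2 enzyme, and an E2 hands it on to the substrate with the help of a ligase. In the liver, which makes and secretes much protein, the system removes misfolded products of the secretory pathway and sets the lifetime of metabolic enzymes.

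Values are log2 expression as deposited, differences are on that scale with the standard error of the fit, and a gene was called where limma's p, adjusted over all 15502 probe sets, was below 0.05. Of the 81 members 72 lay above the array median on all 17 arrays, 3 (psmd11b, ube2wb and psmc3ip) lay below it on all 17, and 6 lay below it on some. The table holds no detection calls, so low values were not shown to be above background. Summed as means per fish, 11 liver markers lay at 11.87 to 12.42 on every array. Averaged over the diets, 4 of these 11 were called lower in females and 0 higher, where 5.57% of all probe sets were called lower. The 14 intestinal markers measured stood at 8.45, 8.66 and 9.25 in male fish 11, 66 and 52 against 4.64 to 5.62 in the other 14 fish, so results are also given without these 3 males. That fit keeps male fish 26 and 30 on 0% and male fish 53 and 54 on 25%. A call can also be lost there through fewer fish. The 16 ovary markers lay at 3.71 to 4.94 in females on 0%, 5.61 to 6.49 in females on 25% and 3.31 to 3.67 in males. The 13 exocrine pancreas markers ranged from 6.46 to 12.24 over all fish. Male fish 11, 66 and 52 were the highest males for these, at 12.24, 11.93 and 10.37. They were also the highest males for leukocyte and interferon-response markers, at 6.42, 5.65 and 6.28. Leaving them out therefore does not separate the intestinal markers from the other 2 lists. The part of these tissues in the results below was not tested, and in whole-liver RNA fewer cells of a type and less RNA per cell cannot be told apart.

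The first comparison was of females with males, averaged over the diets. Of the 81 genes 12 were lower and 1 was higher in females, 16.0% called against 13.6% of all probe sets, or 21.2% of the 7751 brighter ones, to which 77 members belong. Genes called lower in females made up 14.8% of the members, against 5.57% of all probe sets and 10.3% of the brighter ones, and genes called higher 1.23% against 8.02% of all. At an unadjusted p below 0.05 there were 26, or 32.1%, against 29.1% of all probe sets. The median difference of the members was -0.13, against 0.01 for all probe sets and -0.03 for the brighter ones, and 18 of 81 differences were above 0. Quantile normalization brought the members' median to -0.02 and the calls to 6, and it turned the median of the 19S ATPases from -0.05 to 0.07. The calls lost there were psma2b, psmb2, psmc2, psmd13, psmg3, ube2e3 and ube2q2, with adjusted p from 0.0543 to 0.451 in limma. Without male fish 11, 52 and 66, 9 members were called lower and none higher. The calls lost then were psma2b, psmb2, psmd13, ube2d1b, ube2q2 and ube2ql1, with adjusted p from 0.0574 to 0.193, and those gained were psmd4b at -0.44 (adjusted p = 0.0389) and ube2h at -0.67 (adjusted p = 0.00712). The shares of all probe sets called under quantile normalization and without male fish 11, 52 and 66 are not given here. The counts of those refits therefore have no background beside them. By role, in the main fit, 7 of the 27 E2 genes were lower and 1 was higher, against 5 lower of the 48 psm genes other than psmc3ip and psme3ip1. Whether the shares of E2 and psm genes differ was not tested.

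**Figure D1:**
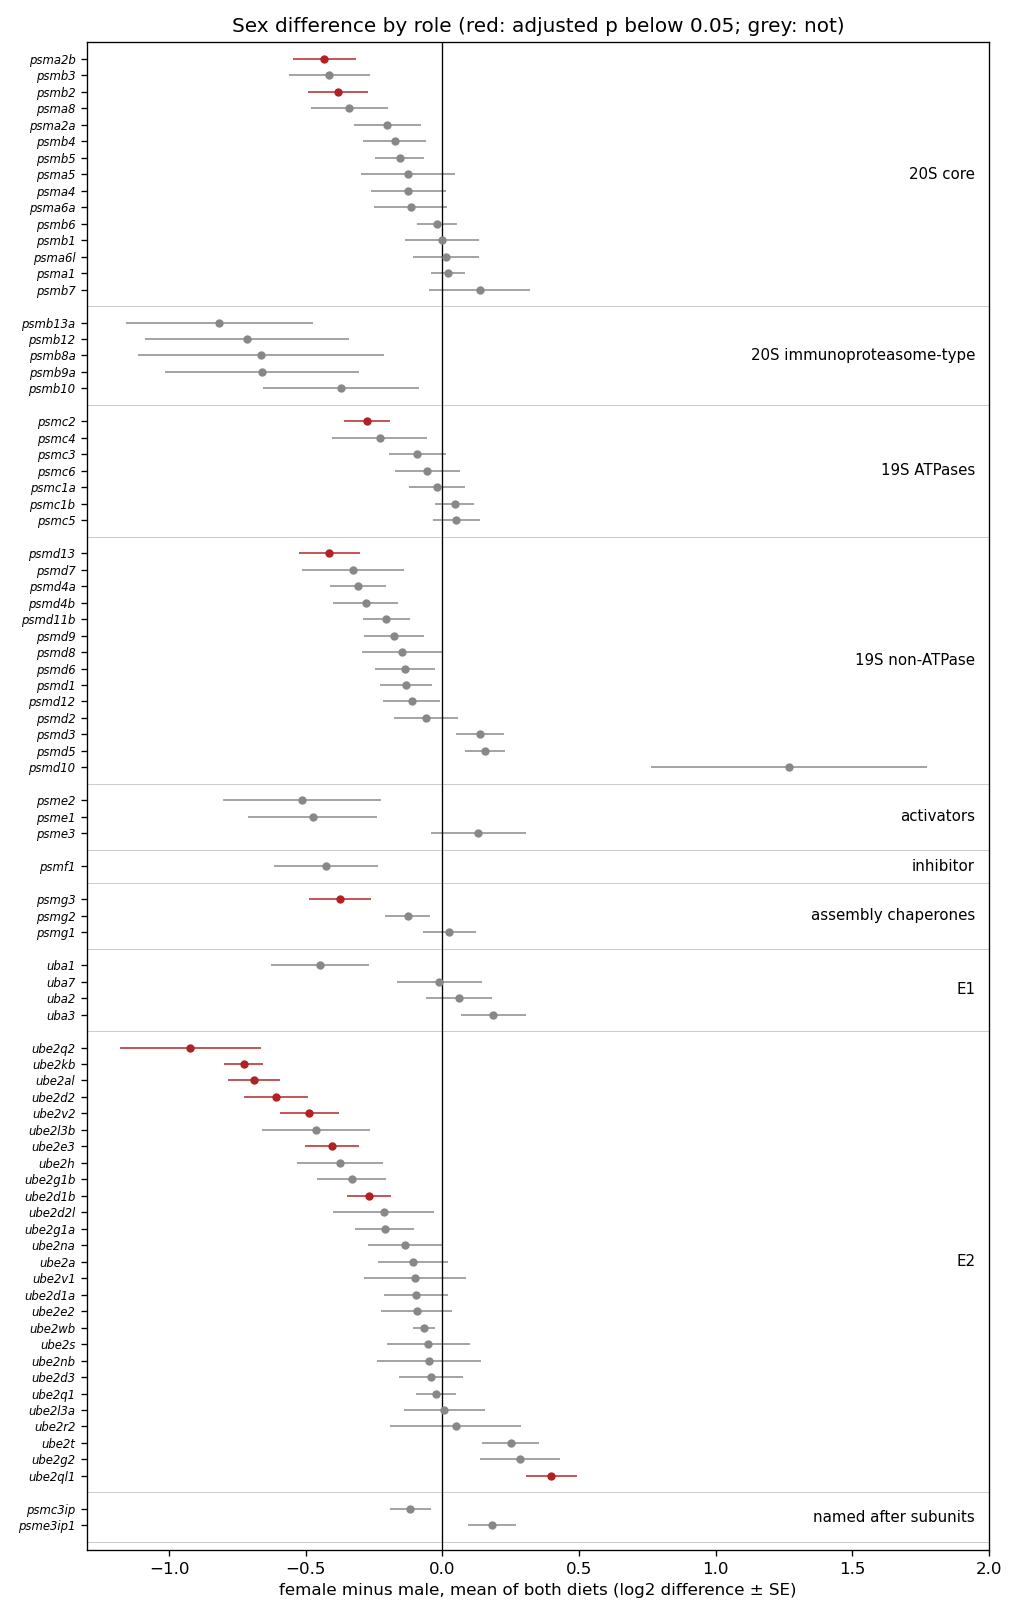
Female minus male log2 difference, averaged over both diets, with its standard error for each of the 81 genes, ordered within 9 role groups and a group of 2 genes named after subunits; red points passed an adjusted p of 0.05 in limma and grey points did not. Red points lie left of 0 in all groups that have them, except ube2ql1 at 0.40.

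Among the E1 enzymes, which start each conjugation chain, none of 4 was called for sex. Uba1, the main activator of ubiquitin, differed by -0.45 ± 0.18 (adjusted p = 0.112), uba2, which activates SUMO with a partner, by 0.06 ± 0.12, and uba3, its counterpart for NEDD8, by 0.19 ± 0.12. Uba7, which in mammals activates the interferon-induced ISG15, differed by -0.01 ± 0.15. The 1 female with much uba1 was fish 49 at 7.58, the highest of all 17 fish. Without it the uba1 difference was -0.57 with an adjusted p of 0.00782 in limma. That was the only refit in which uba1 was called for sex, and it leaves out the highest female.

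The E2 gene ube2kb encodes 1 of the zebrafish forms of UBE2K, which builds the lysine-linked ubiquitin chains that the proteasome reads. It was measured at 5.30, 5.38, 5.22, 5.59 and 5.55 in females on 0% and at 5.44, 5.34, 5.46, 5.48 and 5.29 in females on 25%. In males it stood at 5.88, 5.91, 6.31 and 6.01 on 0% and at 6.15, 6.30 and 6.25 on 25%. Every one of the 10 females lay below every one of the 7 males, which held for no other member and for 0.297% of all probe sets. The difference was -0.73 ± 0.07, 1.65-fold (limma, adjusted p = 1.75e-05). It was called within each diet as well, at -0.62 ± 0.10 on 0% (adjusted p = 0.00273) and -0.83 ± 0.10 on 25% (adjusted p = 0.000114).

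Ube2al, a relative of the Rad6-type enzyme ube2a, was also called in all 3 sex comparisons. Its values were 5.92, 6.38, 6.12, 6.27 and 6.01 in females on 0%, and 6.27, 6.31, 6.66, 6.46 and 6.20 in females on 25%. Males had 6.88, 6.65, 7.01 and 6.83 on 0%, and 6.74, 7.30 and 7.12 on 25%. The sexes did not overlap within either diet, while female fish 24 on 25% lay just above male fish 26 on 0%. The averaged difference was -0.69 ± 0.10, 1.61-fold (limma, adjusted p = 0.000236), with -0.70 ± 0.13 on 0% (adjusted p = 0.0078) and -0.68 ± 0.14 on 25% (adjusted p = 0.00906). Without male fish 53 the adjusted p on 25% was 0.0651. Ube2a itself differed by -0.11 and was not called.

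Ube2d2 belongs to the UBE2D enzymes, which work with many different ligases. Females had 4.62, 4.39, 4.61, 4.21 and 4.61 on 0%, and 4.65, 4.38, 4.49, 4.68 and 4.26 on 25%. Males had 4.76, 4.87, 4.47 and 5.32 on 0%, and 5.10, 5.27 and 5.66 on 25%. The females of both diets covered the same range, and on 25% all 3 males lay above them, while male fish 30 on 0% lay among the females. The averaged difference was -0.61 ± 0.12, 1.52-fold (limma, adjusted p = 0.00321). On 25% it was -0.85 ± 0.17 (adjusted p = 0.00802, and 0.0525 without male fish 54), and on 0% -0.37, which was not called. Of its 4 relatives measured, ube2d1b, below the array median on 6 arrays, was lower in females by -0.27 ± 0.08 (limma, adjusted p = 0.0406), and ube2d1a at -0.10, ube2d3 at -0.04 and ube2d2l at -0.21 were not called.

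Ube2v2 lacks the catalytic cysteine of other E2 proteins and pairs with Ube2n to build chains used in signalling and DNA repair. Females had 6.18, 5.97, 6.41, 6.51 and 6.06 on 0%, and 6.46, 6.04, 6.67, 6.27 and 6.33 on 25%. Males had 7.31, 6.98, 6.89 and 6.72 on 0%, and 6.46, 6.51 and 6.77 on 25%. The 4 males on 0% lay above all females, and the males on 25% overlapped them. The difference was -0.75 ± 0.15 on 0% (limma, adjusted p = 0.0113, and 0.0559 without male fish 11, 52 and 66) and -0.22 ± 0.16 on 25% (adjusted p = 0.503), and the test of whether these 2 differ gave an adjusted p of 0.682. The averaged difference was -0.49 ± 0.11 (limma, adjusted p = 0.00758). The partner genes ube2na at -0.14 and ube2nb at -0.05 and the second variant ube2v1 at -0.10 were not called.

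**Figure D2:**
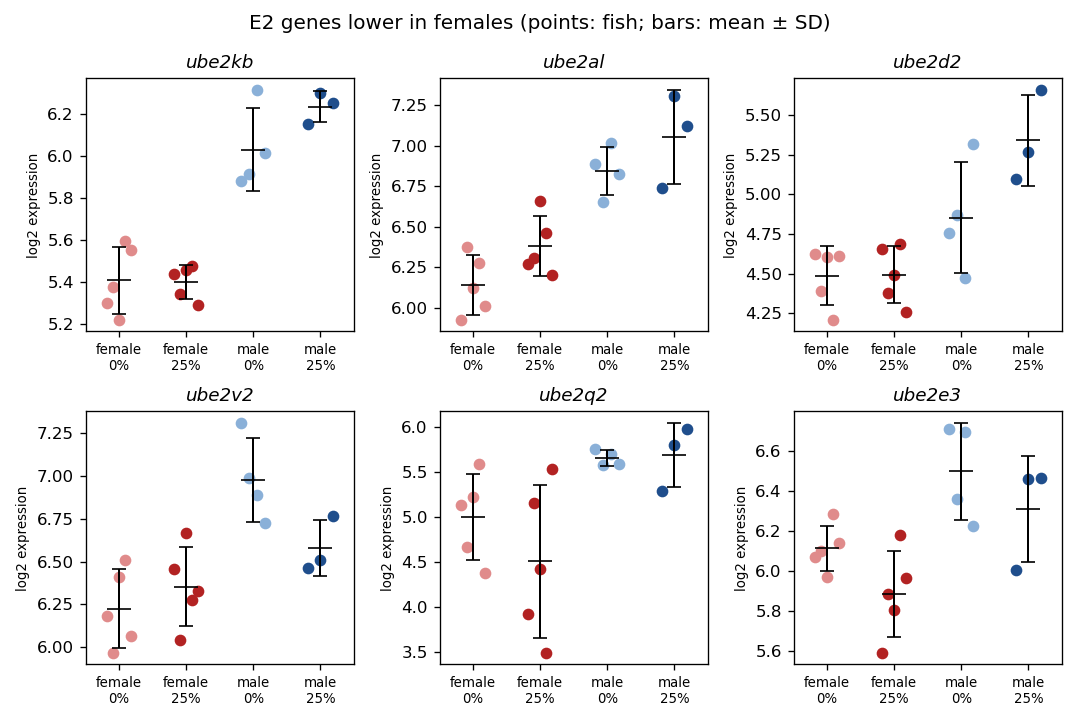
Log2 expression of 6 E2 genes that were lower in females, with 1 point for each fish in the 4 groups of sex and dietary carbohydrate and bars for the group mean ± SD. In ube2kb the 10 females lie at 5.22 to 5.59 and the 7 males at 5.88 to 6.31, while in the other genes single fish of the sexes overlap.

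Ube2q2, of a divergent E2 subfamily, had the lowest sex difference of the 81 genes, with females spread more widely than males. Females had 5.13, 4.66, 5.22, 5.59 and 4.38 on 0%, and 3.92, 5.16, 4.42, 3.49 and 5.53 on 25%. Males had 5.75, 5.57, 5.71 and 5.59 on 0%, and 5.29, 5.80 and 5.98 on 25%. The males lay close together, female fish 25 and 51 lay among them, and fish 3 and 49 lay lowest. The difference was -0.92 ± 0.26 (limma, adjusted p = 0.0287), but the call was lost without fish 8, 53 or 54, with an adjusted p of up to 0.0628, and it was 0.0765 without male fish 11, 52 and 66.

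Ube2e3 was lower in females by -0.40 ± 0.10 on its brightest probe set (limma, adjusted p = 0.0144, and 0.1 under quantile normalization) and by -0.47 on its second one (adjusted p = 0.0235). Females of both diets had 5.59 to 6.29 and males 6.01 to 6.71, with the lowest male value in fish 52. Ube2ql1, the 1 member higher in females, lay at 4.07 to 4.67 in females and 3.80 to 4.17 in males, a difference of 0.40 ± 0.09 (limma, adjusted p = 0.0108, and 0.0991 without male fish 11, 52 and 66). Its second probe set, below the array median on 10 arrays, gave 0.15 (adjusted p = 0.403). For ube2s, which lengthens chains for the anaphase-promoting complex, the 2 probe sets parted. The brightest differed by -0.05 (adjusted p = 0.855), and the other by 0.35 (limma, adjusted p = 0.00743). That other probe set was also called on 25%, at 0.47 (limma, adjusted p = 0.0225). Of the cell division markers 13 of 21 were higher in females, and of the ovary markers 15 of 16. Their part in the ube2s values was not tested. Of the 19 E2 genes that were not called, the differences ran from -0.46 for ube2l3b to 0.28 for ube2g2, an enzyme of the degradation pathway of the endoplasmic reticulum.

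The 15 genes of the ordinary 20S core held 2 calls, both lower in females, or 13.3%. Of all probe sets 13.6% were called and 5.57% called lower, and of the brighter ones 21.2% and 10.3%. Psma2b, an alpha-ring subunit, had 5.73, 6.13, 6.30, 6.59 and 6.14 in females on 0% and 6.14, 6.08, 6.59, 6.19 and 6.43 on 25%, against 6.51, 6.67, 6.87 and 6.66 in males on 0% and 6.77, 6.36 and 6.82 on 25%. Female fish 24, 25 and 51 lay within the male range. The difference was -0.43 ± 0.12 (limma, adjusted p = 0.0223, and up to 0.0591 without fish 52 or 54). The beta-ring subunit psmb2 differed by -0.38 ± 0.11 (adjusted p = 0.0311), with 7.07 to 7.77 in females and 7.38 to 7.92 in males. The genes of the catalytic subunits psmb5, psmb6 and psmb7 differed by -0.16, -0.02 and 0.14, and none was called. The core median was -0.13 and became -0.02 under quantile normalization.

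In the 19S cap 1 of 7 ATPases and 1 of 14 psmd genes were lower in females and none was higher. Together they made up 9.52% of the cap genes, against 13.6% of all probe sets called and 5.57% called lower. Of the brighter probe sets 21.2% were called and 10.3% called lower. The ATPase psmc2 differed by -0.28 ± 0.08 (limma, adjusted p = 0.0416), and the lid subunit psmd13 by -0.41 ± 0.11 (adjusted p = 0.0241, and 0.075 without fish 52). Psmd13 lay at 5.35 to 6.19 in females and 5.74 to 6.29 in males, and fish 24 was the highest female. The ubiquitin receptor genes psmd4a and psmd4b stood at -0.31 and -0.28 without passing the test. Among the assembly chaperones, which help form the alpha ring, psmg3 was lower in females by -0.38 ± 0.11 (limma, adjusted p = 0.0402), and psmg1 at 0.03 and psmg2 at -0.13 were not called. The calls of psmb2, psmc2, psmg3 and ube2d1b were each lost with 8 to 13 of the 17 fish left out in turn, as adjusted p reached 0.0842 to 0.109.

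Psmd10, known in mammals as gankyrin and as a chaperone of cap assembly, had the highest sex difference of all members without being called. Females had 5.81, 6.75, 6.83, 7.34 and 5.24 on 0%, and 9.26, 7.92, 5.96, 6.10 and 5.36 on 25%. Males had 4.88, 4.94, 6.54 and 4.96 on 0%, and 5.88, 5.07 and 5.40 on 25%. Fish 3 stood far above the other females, followed by fish 20 at 7.92 and fish 25 at 7.34. Fish 30 stood above the other males, and the sexes overlapped. The difference was 1.27 ± 0.51 (limma, adjusted p = 0.11). The other cap assembly chaperones of mammals, psmd5 and psmd9, differed by 0.16 and -0.18 and were not called.

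The immunoproteasome-type subunits replace the catalytic beta subunits after interferon signals and favour peptides that MHC class I molecules can present. In the RefSeq assembly GRCz12tu psmb8a, psmb13a, psmb12 and psmb9a follow one another, with overlapping annotated spans, on chromosome 19 between mhc1uba and tap2a, while psmb10 is not in this run. None of the 5 was called for sex. Psmb8a had 4.22, 5.53, 6.05, 6.78 and 5.93 in females on 0%, 5.62, 5.15, 4.91, 7.08 and 4.66 in females on 25%, 7.22, 5.08, 6.70 and 6.34 in males on 0%, and 7.50, 5.42 and 5.61 in males on 25%. The lowest fish was 7 and the highest 52, and each group overlapped the others.

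The 5 genes differed by a median of -0.66 between the sexes, from -0.82 ± 0.34 for psmb13a (limma, adjusted p = 0.128) to -0.37 for psmb10 (adjusted p = 0.422), and 1 of 5 passed an unadjusted p of 0.05. Male fish 52 had the highest value of all 17 fish in each of the 5, with 6.65 for psmb9a, 7.15 for psmb12, 7.60 for psmb13a and 7.06 for psmb10. Without male fish 11, 52 and 66 the differences were -0.11 for psmb8a, -0.17 for psmb9a, -0.27 for psmb12, -0.25 for psmb13a and 0.09 for psmb10, a median of -0.17. Over 19 leukocyte and interferon-response genes the mean per fish was 4.55 to 5.99 in females and 4.95 to 6.42 in males, highest in fish 11 at 6.42 and fish 52 at 6.28, and 0 of 19 were called for sex. Of these irf1a lay below the array median on all 17 arrays. The part of these cells and of the 3 males' intestinal markers in the subunit values was not tested.

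**Figure D3:**
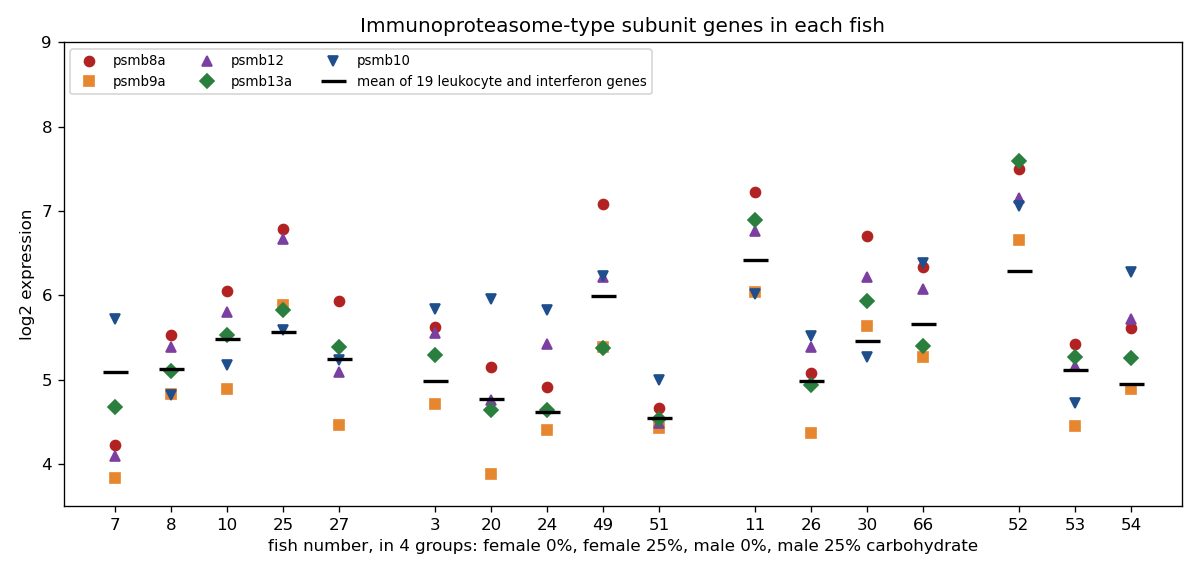
Log2 expression of 5 immunoproteasome-type subunit genes in each of the 17 fish, with a black bar for the mean of 19 leukocyte and interferon-response genes. Fish 52 has the highest value of each subunit gene.

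The activators psme1 and psme2 form together a cap that is induced by interferon, and psme3 forms a nuclear one. Psme1 differed between the sexes by -0.47 (limma, adjusted p = 0.196), psme2 by -0.51 (adjusted p = 0.258), and psme3 by 0.13. Psmf1, which in mammals inhibits the isolated core, differed by -0.42 (adjusted p = 0.152). Fish 52 was the highest of all fish for psme1 at 7.99, psme2 at 7.96 and psmf1 at 7.23. Without male fish 11, 52 and 66 the 3 differences were -0.21, -0.15 and -0.09.

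Within a single diet fewer genes passed. On 0% carbohydrate 3 members, ube2al, ube2kb and ube2v2, were lower in females, or 3.7% of the 81, against 3.33% of all probe sets called and 1.06% called lower. On 25% the 3 members ube2al, ube2d2 and ube2kb were lower, again 3.7%, against 4.91% called and 1.36% called lower. On 0%, 5 members (psmb2, ube2al, ube2g1b, ube2kb and ube2v2) had all females below all males, where 2.84% of all probe sets had, and 1, ube2ql1, had them above, where 5.64% had. On 25%, 6 members (psmc2, psmd9, ube2al, ube2d2, ube2kb and ube2wb) had all females below all males, where 4.5% of all probe sets had. For psmd9 the highest female on 25% had 4.33 and the lowest male 4.35, and its second probe set gave 0.04 with overlap. Ube2wb, below the array median on all 17 arrays, had 2.89 and 2.90 there.

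The second question was whether these genes differed between 25% and 0% dietary carbohydrate. Within a sex 0 of 81 were called in females, where 2.1% of all probe sets were, and 0 in males, where 0.116% were (limma). At an unadjusted p below 0.05 there were 16 members (19.8%) in females, against 12.8% of all probe sets, and 7 (8.64%) in males, against 8.18%. Averaged over the sexes 2 members rose on 25% and none fell, or 2.47%, against 1.91% of all probe sets called and 1.46% called higher, with 20 (24.7%) at an unadjusted p below 0.05, against 15.6%. Both are proteasome subunits.

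Psmd8, a lid subunit, had the highest diet difference in males and in the average of the sexes. Its values were 5.54, 6.40, 6.01, 6.26 and 5.74 in females on 0% and 6.40, 6.97, 7.03, 6.74 and 6.47 on 25%. In males they were 5.60, 6.46, 6.21 and 6.05 on 0% and 7.05, 6.79 and 6.94 on 25%. All 3 males on 25% lay above the 4 on 0%, and among females only fish 8 on 0% reached the lowest fish on 25%. The averaged difference was 0.79 ± 0.15, 1.73-fold (limma, adjusted p = 0.0145), with 0.73 ± 0.19 in females (adjusted p = 0.0597, and 0.0309 to 0.0409 without fish 3, 8 or 11) and 0.85 ± 0.23 in males (adjusted p = 0.239). Without male fish 11, 52 and 66 the averaged difference was 0.63 with an adjusted p of 0.0869. In that refit the difference in females stayed at 0.73 and was called (limma, adjusted p = 0.0477). The female difference was also called with array weights (limma, adjusted p = 0.0457) and, just inside the threshold, over the brighter 7751 probe sets.

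Psma6a, an alpha-ring subunit, had 5.70, 5.85, 5.98, 6.39 and 5.90 in females on 0% and 6.24, 6.24, 6.85, 6.63 and 6.65 on 25%. Males had 5.56, 6.34, 6.22 and 6.27 on 0%, and 6.80, 6.46 and 6.61 on 25%. Fish 11 was far below the other males on 0%, the males of the 2 diets did not overlap, and of the females fish 25 on 0% reached into the 25% group. The averaged difference was 0.54 ± 0.13 (limma, adjusted p = 0.0497), just inside the threshold, and it was lost with 13 of the 17 fish left out in turn. Without male fish 11, 52 and 66 it was 0.41 with an adjusted p of 0.176. Psma6l, a close relative by name, differed by 0.07.

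**Figure D4:**
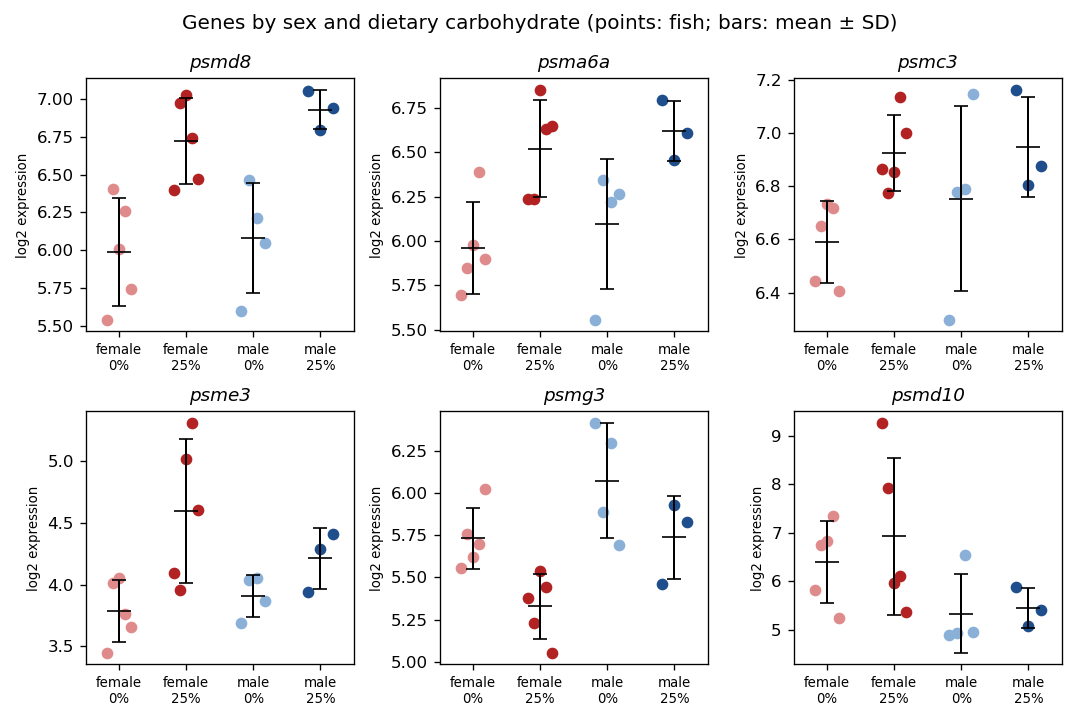
Log2 expression of psmd8, psma6a, psmc3, psme3, psmg3 and psmd10, with 1 point for each fish in the 4 groups of sex and dietary carbohydrate and bars for the group mean ± SD. In psmd8 the 3 males on 25% lie at 6.79 to 7.05 and the 4 on 0% at 5.60 to 6.46.

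Within each sex the core and cap genes leaned the same way, mostly by small amounts, and the tests called none. Averaged over the sexes, psmd8 and psma6a were called, as given above. Of the 36 core and cap genes, the immunoproteasome-type subunits left out, 33 had a difference above 0 in females and 30 in males. In females 40.2% of all probe sets and 45.0% of the 7751 brighter ones did, and in males 47.6% and 49.8%. Their median was 0.19 in females and 0.15 in males, against -0.03 and -0.01 for all probe sets. Quantile normalization gave 0.12 in both sexes. Without male fish 11, 52 and 66 the male median was 0.04 and that of the 15 core genes went from 0.09 to -0.02, so the male figure rests in large part on those fish. In females on 25%, fish 24 was the highest for several of these genes. It had psmc4 at 7.45 against 5.98 to 6.63 in the others and psmc5 at 6.80 against 6.36 to 6.45. For psmd5 it was the lowest, at 4.77. Fish 24 also had the highest mean of the exocrine pancreas markers among females, 11.45. The female median without fish 24 is not given here. The females' ovary markers differ by diet too, and whether tissue carried with the liver plays a part was not tested.

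By role, the 7 ATPases were all above 0 in both sexes, with medians of 0.24 and 0.17. Psmc3 and psmc6, named here because 2 diet groups did not overlap, had 6.41 to 6.73 against 6.77 to 7.14 in females for psmc3 and 6.05 to 6.39 against 6.40 to 6.62 in males for psmc6. Neither was called (limma, adjusted p = 0.296 and 0.729). Of the 14 other cap genes 11 were above 0 in both sexes, and of the 15 core genes 10. The catalytic subunit genes psmb5, psmb6 and psmb7 differed by 0.34, 0.15 and 0.43 in females and by 0.12, 0.40 and 0.09 in males.

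Psmb6 had 7.26, 7.54, 7.48 and 7.47 in males on 0% and 7.84, 7.70 and 7.97 on 25%, without overlap, and it was not called (adjusted p = 0.305 in males and 0.0731 in the average). In all, 2 members (psmc3 and psmd12) lay higher and 1 (psmg3) lower without overlap in females, where 2.75% of all probe sets lay higher and 1.34% lower. In males 4 (psmd8, psma6a, psmb6 and psmc6) lay higher, where 3.39% of all probe sets did. With 81 members these counts are near those shares.

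**Figure D5:**
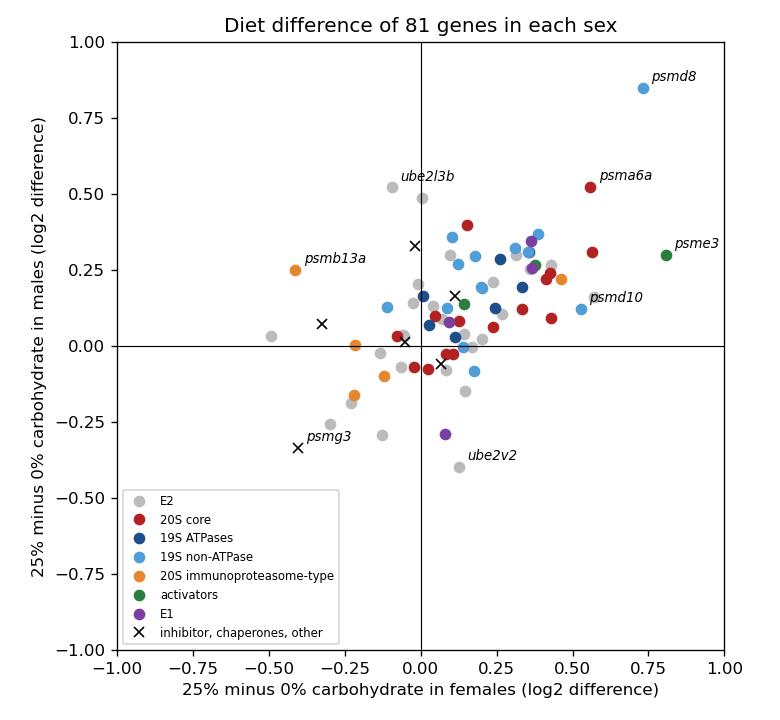
Difference between 25% and 0% carbohydrate in females (horizontal axis) and males (vertical axis) for each of the 81 genes, on the log2 scale and coloured by role. Psmd8 lies at 0.73 and 0.85, and 48 of the 81 genes lie above 0 on both axes.

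The remaining groups were more mixed. Of the 27 E2 genes 12 were above 0 in both sexes and 5 below in both, and the medians were 0.07 and 0.04. The highest E2 difference in females was 0.57 for ube2g1b (limma, adjusted p = 0.103), an enzyme whose second probe set, below the array median on all 17 arrays, gave -0.02. Uba2 differed by 0.36 in females and 0.35 in males and uba1 by 0.37 and 0.26, none called. Of the 5 immunoproteasome-type genes 1, psmb10, was above 0 in both sexes. Psmg3 was lower on 25% by -0.40 in females (adjusted p = 0.24) and -0.33 in males, with 5.55 to 6.02 against 5.05 to 5.54 in females.

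Psme3 had the highest diet difference in females. Females had 3.45, 4.01, 4.05, 3.77 and 3.66 on 0%, and 4.09, 3.96, 5.02, 5.31 and 4.61 on 25%. Males had 3.69, 4.03, 4.06 and 3.87 on 0%, and 3.94, 4.29 and 4.41 on 25%. Fish 24, 49 and 51 stood above all others, and fish 20 lay within the 0% range. The difference was 0.81 ± 0.22 in females (limma, adjusted p = 0.0916) and 0.30 in males. It was called in females without fish 20 (0.97, adjusted p = 0.022) or without fish 3 (0.93, adjusted p = 0.0402), and in no other refit. Those fish were the lowest females on 25%. Ovary and cell division markers were also higher in these females on 25%, with 12 of 16 and 9 of 21 called, and their part in the psme3 values was not tested.

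The last question was whether the diet acted differently in the sexes. In the test of that difference 0 of 81 members were called (limma), against 0.697% of all probe sets, and 2 (2.47%) reached an unadjusted p below 0.05, against 5.99%. They were ube2v2, at 0.52 ± 0.21 (adjusted p = 0.682), and the assembly chaperone psmg2, at -0.40 ± 0.17 (adjusted p = 0.686). Psmg2 had 6.59 to 6.99 in females on 0% and 6.27 to 6.64 on 25%, while males had 6.69 to 6.91 and 6.55 to 6.99. The members' median was 0.01.

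Of 115 other genes of the pathway listed, 77 were measured. For sex 9 of the 77 were lower in females and 3 higher, where 5.57% of all probe sets were lower and 8.02% higher, with a median of -0.06. The ubiquitin gene ubb was lower by -0.75 ± 0.16 (limma, adjusted p = 0.00589), while rps27a, which encodes ubiquitin fused to a ribosomal protein, was higher by 0.20 ± 0.05 (adjusted p = 0.00846). The ligase or scaffold genes lower in females were cul1b at -0.32, skp1 at -0.25, the chaperone-linked stub1 at -0.31 and wwp2 at -0.41, beside cops3, usp2a, usp25 and ufd1l. Faf1, which binds the p97 unfoldase, and sumo2b were higher, by 0.29 and 0.52.

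For diet 2 of the 77 rose in females, where 1.9% of all probe sets did, sumo3a by 0.31 ± 0.07 (limma, adjusted p = 0.0453) and the deubiquitinating enzyme gene uchl1 by 1.89 ± 0.37 (adjusted p = 0.00914), from 3.37 to 5.25. In males 1 of the 77 rose, where 0.0968% of all probe sets did. It was usp2a, a clock-linked deubiquitinating enzyme gene in mammals, at 1.45 ± 0.23 (limma, adjusted p = 0.0262), from 3.34 to 4.79, against 3.10 and 3.23 in females. Usp2a lay below the array median on 13 arrays and uchl1 on 7, so the size of these differences is not exact. Ovary markers were also higher in females on 25%, with 12 of 16 called, and their part in the uchl1 values was not tested. The 13 genes measured of a list headed proteasome-bound had a median of 0.16 in females and 0.22 in males. Uchl1, the 1 called in females, had been placed in that list, and whether its product binds the proteasome was not tested.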

How the data were processed

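The authors deposited 1 table of log2 expression values, which the main fit used without further scaling. Array medians lay close together, but quantile normalization changed the calls, so a full common scale of the arrays is not shown. Base 2 is an inference from values that run from 1.82 to 14.38. Total RNA was extracted with TRIZOL and labelled with biotin, per the labels' protocols. PLIER, GCRMA, RMA and MAS5 stand in the submitters' processing notes with no role given. Array medians spanned 3.518 to 3.606, and no batch or scan date is given in the sources used here.

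Of 15617 probe sets, 115 controls were left out. GEO's platform annotation gives 1 symbol to 10795 of the rest, several to 135 and none to 4572; 10711 were matched by Entrez ID to RefSeq and 1 symbol was updated. The 4 group means were fitted with limma 3.58.1 (R 4.3.3; lmFit, eBayes) on all 17 arrays, with Benjamini-Hochberg adjustment over 15502 probe sets and a threshold of 0.05. The model was also run on simulated data with independent errors for each probe set. Differences in tissue content between fish were not part of that simulation, and its outcome is not reported here. A fish is 1 replicate, and the number of arrays limits the precision. Members, role groups, pathway and marker lists, and the fish left out were chosen with earlier results of these data known, so their counts are descriptions. Named were members called in any contrast, some extremes of role groups, and all immunoproteasome-type, activator, inhibitor and E1 genes. Members whose probe sets differed in a call, ube2ql1 and ube2s, were named too, while opposite directions without a call were not all reported. Genes whose groups did not overlap and further members beside them were named after their values were seen. Sequences were not used here.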

Additional observations from a re-analysis of the deposited data

Results flagged for a closer look

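In 11 of the 243 groups of 4 or 5 fish formed by the 81 genes, 1 fish lay far from the others by Dixon's criterion, or 4.53%. Chance gives about 1 in 20 on average, but the genes share the same fish, so the groups are not independent. The share therefore does not show that the values below are due to chance. In male fish 11 on 0% carbohydrate 3 proteasome genes were low. Psma6a stood at 5.556 there against 6.219 to 6.343 in the other 3 males, psmc4 at 6.160 against 6.579 to 6.663, and psmc2 at 6.427 against 6.866 to 6.929. In female fish 24 on 25% carbohydrate 3 were high. Psmc6 stood at 7.047 against 6.285 to 6.404 in the other 4 females, psmc5 at 6.801 against 6.361 to 6.445, and psmd13 at 6.192 against 5.539 to 5.697. Male fish 30 on 0% had psmd10 at 6.541 against 4.882 to 4.963 and ube2g1b at 6.593 against 6.176 to 6.196. The other 3 values were ube2l3b at 5.135 in male fish 26 on 0% (others 5.573 to 5.634), ube2a at 7.085 in female fish 3 on 25% (others 7.415 to 7.535) and ube2v1 at 6.733 in female fish 25 on 0% (others 5.339 to 5.656).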

How the results depend on the processing

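The number of members called for sex averaged over diets was 13 as reported, 6 under quantile normalization and 16 with array weights. It was 8 to 15 with 1 fish left out, lowest without male fish 54. For sex on 25% carbohydrate it was 5 in place of 3 without male fish 11, 52 and 66. It was 2 to 5 both over the other settings and with 1 fish left out. For sex on 0% it was 3 to 4 with 1 fish left out and 2 to 4 over the other settings, with 2 without the 3 males. Array weights brought in psmd13 on 0% and ube2e3 on 25%. For diet in females it was 0 as reported and 0 to 2 with 1 fish left out. Under quantile normalization it was 1, psmg2, lower on 25% by -0.435 (limma, adjusted p = 0.0314). With array weights it was 1, psmd8, higher by 0.725 (limma, adjusted p = 0.0457). Over the brighter 7751 probe sets, of which 2.95% were called, it was also psmd8, at 0.733 and just inside the threshold. Without male fish 11, 52 and 66 it was 2, psmd8 and psmd12, higher by 0.733 and 0.352 (limma, adjusted p = 0.0477 and 0.0396). For diet averaged over sexes it was 2 as reported, 1 under quantile normalization, median centring, trended robust variance and array weights, 0 without male fish 11, 52 and 66, and 1 to 3 with 1 fish left out. Diet in males and the interaction stayed at 0 under the settings run and with each fish left out. Except for the brighter 7751, the shares of all probe sets called in these refits are not given here. A change in the members called can therefore not be told from a change over the whole array. The cause of these changes was not tested.

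The averaged sex differences of ube2kb, ube2al, ube2d2 and ube2v2 passed under all 7 other settings and all 17 fits without 1 fish. None of 510 refits of a called member reversed its direction, and 89 missed the threshold. Leaving out 1 fish also brought in members not called above. For sex averaged over diets these were psmb3 (fish 24), psmd4a (fish 11, 24 or 53), uba1 (fish 49) and ube2h (fish 52). Within a diet they were psmd13 (fish 11, 24 or 52) and psma2b (fish 25) on 0%, and ube2e3 and psmg2 (fish 52) and ube2q2 (fish 51) on 25%. For diet averaged over sexes they were psmb6 (fish 20) and psmg3 (fish 66), and for diet in females psmd8 (fish 3, 8 or 11) and psme3 (fish 3 or 20). Fitting only the groups compared gave no separate value for averaged contrasts or the interaction. No paired analysis was possible because each fish number occurs once. With 3 and 4 males, small diet differences in males are measured with wide error, and the size of differences near or below the array median is uncertain.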
